A study of Mus musculus with 9 samples.

Results

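Kinesin motor genes were followed through the change from spermatogonium to spermatocyte in 9 mRNA libraries, taking every gene whose symbol is Kif followed by a family number and with at least 30 counts in all libraries together. Of 37 such symbols among the 24505 genes of the table, 36 qualified, and Kif12, with 9 counts, did not. The libraries held 3 groups of 3, and all cells came from Uchl1-eGfp mice, a line first kept on a C57BL/6 background and then outcrossed to CD-1, in which EGFP marks germ cells for sorting. Every mouse received the retinoic acid (RA) synthesis inhibitor bis-(dichloroacetyl)-diamine in DMSO at 100 µg per g body weight each day from postnatal day P1, and at P11 was injected once under the skin with RA (10 µl of a 10 µg per µl solution), so that germ cells differentiated in step. In/B spermatogonia (type B in the sample records, EGFP bright) were sorted at P17 and preleptotene (PL) spermatocytes (EGFP dim) at P19. For RA-sufficient PL cells no inhibitor was given after the day of the injection, and for RA-deficient PL cells it was continued. The study describes the In/B spermatogonia as RA-sufficient too. RA-deficient PL and In/B therefore differ in stage, age and inhibitor treatment at once, and these cannot be told apart. No group is free of the inhibitor. The study's quantitative PCR methods used cells from several males of a litter, and the libraries here may likewise pool littermates. The methods describe 2 or 3 independent cell preparations, so the 3 libraries of a group may not all be separate preparations and the errors then cover technical spread in part.

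Kinesins are motors that use ATP to move along microtubules or to take them apart at their ends. Some build the mitotic spindle and close the cleavage furrow, others carry vesicles, organelles and RNA through the cytoplasm, and a further set works in cilia and in the sperm flagellum. In/B spermatogonia are near the end of their mitotic divisions. PL spermatocytes instead replicate their DNA and then enter a long prophase in which no spindle is built. The flagellum is made much later, in spermatids. The 36 genes were sorted by known role into 12 for spindle and cytokinesis, 13 for cytoplasmic transport, 9 for cilia and centrioles, and 2 others. Values are CPM (counts scaled to a common library total) after TMM scaling, which adjusts for the composition of each library, and a gene was called higher or lower when its absolute log2 fold change exceeded 1 with an adjusted p below 0.05.

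Total counts per library lay between 12612959 and 27042274, with 25048240 to 27042274 in the RA-deficient libraries and 26684393 in In/B replicate 2. RA-deficient replicate 3 stood apart from the other RA-deficient libraries in some markers of spermatogonia. Kit was at 20.3 CPM against 561 and 521, Dmrt1 at 111 against 460 and 485, and Sohlh1 at 16.3 against 60.8 and 65.2. Zbtb16 (227 against 168 and 145 CPM) and Nanos3 (17.3 against 16.6 and 6.81 CPM) were instead highest in it. Kit was at 404, 327 and 331 CPM in In/B and at 41.0, 32.8 and 20.2 CPM in RA-sufficient PL. Dmrt1 was at 711, 538 and 534 CPM in In/B and at 72.1, 76.8 and 72.8 CPM in RA-sufficient PL. For both genes RA-deficient replicates 1 and 2 were thus nearer In/B, and replicate 3 nearer RA-sufficient PL. None of the 5 spermatogonial markers was called between RA-deficient PL and In/B. Uchl1, whose promoter drives the EGFP used for sorting, was at 3657, 2451 and 2352 CPM in In/B. It was at 425, 613 and 525 CPM in RA-sufficient PL and at 1728, 1885 and 991 CPM in RA-deficient PL. It was called higher in RA-deficient than in RA-sufficient PL (log2 fold change 1.56) and was not called between RA-deficient PL and In/B. RA-sufficient libraries carried more RNA of Sertoli cells, the somatic nurse cells of the tubule. The 8 Sertoli markers found of 9 listed summed to between 2802 and 3669 CPM there, against 63.1 to 343 CPM in In/B and 283 to 502 CPM in RA-deficient PL, and none was at 0 in the RA-sufficient libraries, while Fshr was at 0 in RA-deficient replicates 1 and 2. All 8 were called higher than in In/B. In RA-sufficient replicate 1 the 10 markers of late spermatocytes and spermatids summed to 872 CPM, against 263 and 233 CPM in the other replicates. Their sum was 35.1 to 88.0 CPM in In/B, and 10.2, 12.6 and 141 CPM in RA-deficient PL. The spermatid genes Prm1, Prm2, Tnp1 and Tnp2 were below 2 CPM in every library. In sorted bulk cells, fewer cells of a type and less RNA per cell cannot be told apart.

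From In/B to RA-sufficient PL spermatocytes, 14 kinesin genes fell and 7 rose. That is 60% of the 35 tested, against 45.4% of all 15001 genes tested, of which 26.1% rose and 19.3% fell. From In/B to RA-deficient PL spermatocytes, 3 fell and 4 rose, or 20% against a background of 23.2% of 14877 genes, with 11.4% higher and 11.8% lower. Between the PL groups, 3 kinesin genes were higher and 4 lower without RA, or 20% against 15.5% of 15352 genes, with 4.47% higher and 11% lower. That background was 28.4% without RA-deficient replicate 3 and 7.51% to 8.10% without an RA-sufficient library. No test was made of these shares. The median of their log2 fold changes was 0.10 from In/B to RA-sufficient PL (0.04 for all genes), -0.11 to RA-deficient PL (0.00 for all genes) and 0.35 between the PL groups (-0.09 for all genes). All 3 comparisons share groups, so their values are set side by side and are not independent. Scaling by library size alone moved the median of all genes to -0.31 in RA-deficient PL against In/B and to -0.27 between the PL groups. The split became 1 higher and 5 lower in the former and 1 higher and 4 lower in the latter.

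**Figure D1:**
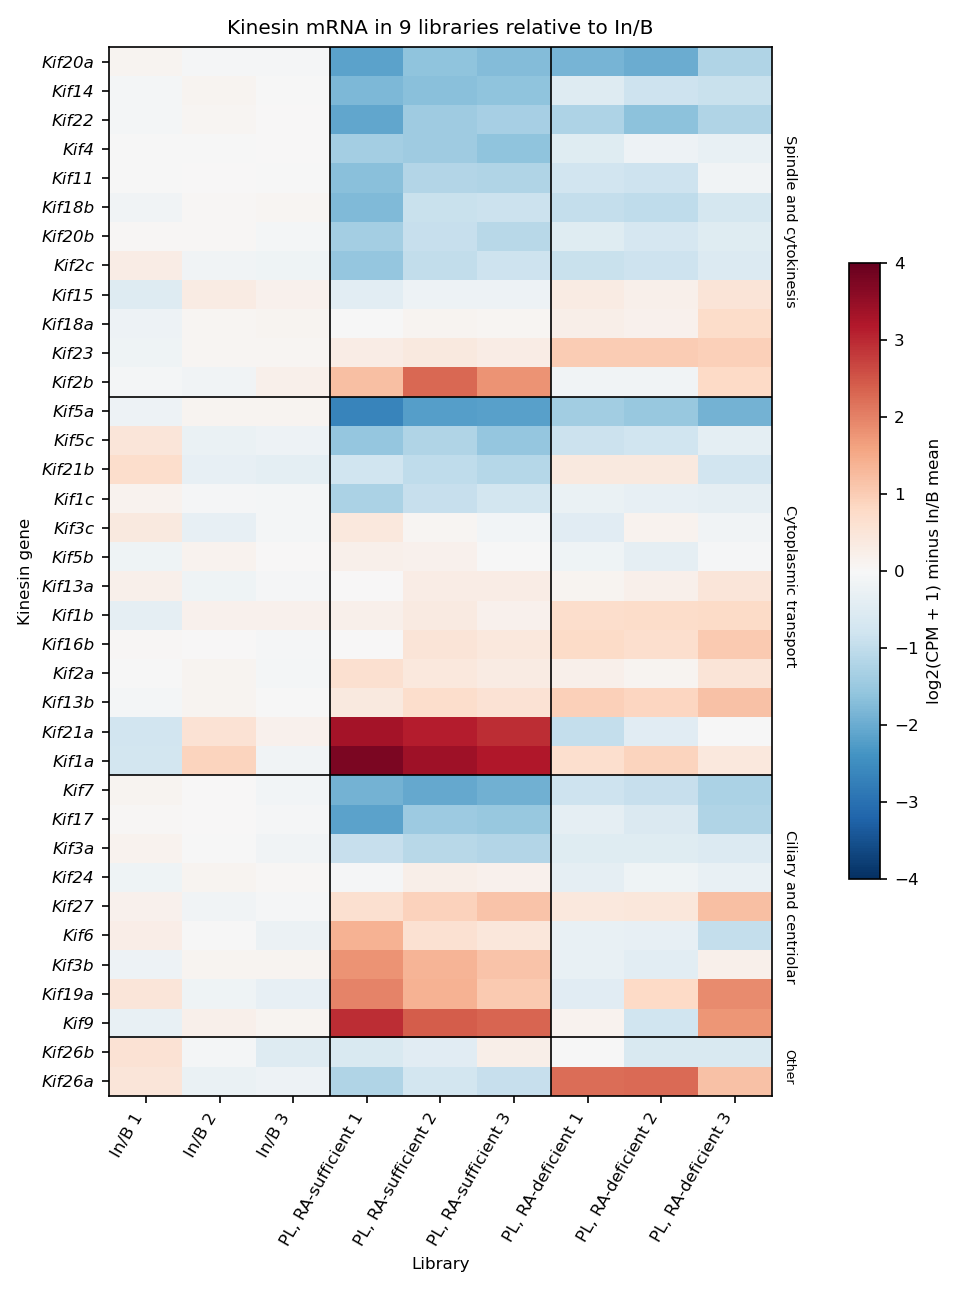
Level of each of the 36 kinesin genes in each library, as log2(CPM + 1) minus the mean of the 3 In/B libraries (colour scale from -4 to 4), with genes in rows by role and libraries in columns by group. Most spindle genes are lower in the 3 RA-sufficient libraries, Kif21a and Kif1a are high in those 3 libraries, and Kif26a is high in the 3 RA-deficient libraries.

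Spindle and cytokinesis kinesins as a set were at their lowest in RA-sufficient PL. Summed over the 12 genes, they gave 2005, 2139 and 2073 CPM in In/B and 1009, 1251 and 1211 CPM in RA-sufficient PL, and the RA-deficient libraries lay between these at 1690, 1635 and 1913 CPM. The 5 spermatogonial markers were also lower in RA-sufficient PL (162 to 214 CPM in sum) than in RA-deficient PL (1266, 1224 and 391 CPM), with all 5 called, and their part in the spindle levels was not tested. Of the 12, 8 fell from In/B to RA-sufficient PL, where 19.3% of all genes tested fell. The median log2 fold change of the 12 was -1.07, against 0.04 over all genes tested. In RA-deficient PL Kif20a and Kif22 fell among the 11 tested, where 11.8% of all genes tested fell, and the median was -0.39. Tested directly between the PL groups, only Kif4 was called, higher without RA. That is 1 of 12, or 8.33%, against 15.5% of all genes tested. In 10 of the 12 genes the In/B and RA-sufficient libraries did not overlap, against 71.5% of all genes. The same held for 10 of the 11 tested in RA-deficient PL against In/B (54.6% of all genes) and for 8 of 12 between the PL groups (47.4% of all genes). Without RA-sufficient replicate 1, 5 of the 8 were still called (Kif11, Kif14, Kif20a, Kif22 and Kif4).

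Kif20a and Kif22 fell with and without RA. Kif20a (chromosome 18, 34784278 to 34792919 in mm9), which brings the chromosomal passenger complex to the spindle midzone, was at 284, 259 and 255 CPM in In/B. It was at 59.5, 87.1 and 79.7 CPM in RA-sufficient PL and at 72.7, 66.7 and 114 CPM in RA-deficient PL. Both PL groups lay below every In/B library and overlapped each other. On the log2 scale the change was -1.77 (SE 0.16, adjusted p = 3.65e-05) with RA and -1.49 (SE 0.21, adjusted p = 0.00117) without. Kif22 (chromosome 7, 134171246 to 134185934), a motor that sits on chromosome arms and pushes them to the spindle equator, had 137, 153 and 148 CPM in In/B. Its values were 34.0, 53.7 and 57.0 CPM in RA-sufficient PL and 61.3, 46.0 and 62.1 CPM in RA-deficient PL. Again the PL groups overlapped. Its log2 fold changes were -1.54 (SE 0.19, adjusted p = 1.78e-04) and -1.20 (SE 0.15, adjusted p = 8.00e-04), and the difference between the PL groups was 0.23 (SE 0.23, adjusted p = 0.494).

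Kif4, Kif14 and Kif11 fell with RA and were not called without it, and the difference between the PL groups was itself called for Kif4 alone. Kif4 (chromosome X, 97821076 to 97922553), a chromosome-bound motor that also limits microtubule growth at the midzone, was steady in In/B at 152, 154 and 156 CPM. It was at 59.5, 56.6 and 49.3 CPM in RA-sufficient PL but at 109, 134 and 126 CPM in RA-deficient PL. These 3 groups did not overlap. Its fall with RA was -1.43 on the log2 scale (SE 0.12, adjusted p = 3.24e-05), and RA-deficient cells were higher than RA-sufficient ones by 1.15 (SE 0.16, adjusted p = 0.00376). Kif4-ps, a copy of the gene with its own line in the table, had 57 to 153 counts in RA-sufficient PL, against 809 to 1118 counts on Kif4, and how reads common to both were counted is not given in the sources used here. With library size as the only scaling the difference of Kif4 between the PL groups was 0.97 and no longer called.

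Kif14, needed for the last step of cytokinesis, had 108, 122 and 111 CPM in In/B, 32.3, 35.0 and 36.7 CPM in RA-sufficient PL and 79.3, 63.0 and 60.9 CPM in RA-deficient PL. Its groups were also separate. It fell by 1.66 with RA (log2, SE 0.12, adjusted p = 1.96e-05). Without RA the change was -0.58 (SE 0.15, adjusted p = 0.0176) and the difference between the PL groups was 0.96 (SE 0.17, adjusted p = 0.00849), both under a fold of 2. Kif11, the motor that pushes spindle poles apart, was at 287, 291 and 286 CPM in In/B. It was at 89.8, 126 and 124 CPM in RA-sufficient PL and at 168, 162 and 259 CPM in RA-deficient PL, where replicate 3 came close to In/B. Its change was -1.29 (SE 0.14, adjusted p = 1.10e-04) with RA and -0.39 (SE 0.18, adjusted p = 0.14) without.

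Kif18b and Kif20b completed the group that fell with RA, together with Kif2c. Kif18b, which works with the depolymerase KIF2C on astral microtubules, had 114, 130 and 132 CPM in In/B, 35.9, 67.4 and 68.3 CPM in RA-sufficient PL and 63.7, 62.1 and 76.9 CPM in RA-deficient PL. RA-sufficient replicate 1 was the low value, and the log2 fold change of -1.08 with RA (SE 0.23, adjusted p = 0.00324) was -0.84 without that library. Kif20b, a cytokinesis motor, had 275, 274 and 255 CPM in In/B, 103, 142 and 125 CPM in RA-sufficient PL and 191, 168 and 190 CPM in RA-deficient PL. Its log2 fold change with RA was -1.06 (SE 0.14, adjusted p = 2.09e-04), or -0.96 without RA-sufficient replicate 1. The depolymerase gene Kif2c had 213, 157 and 153 CPM in In/B, 58.4, 86.4 and 96.5 CPM in RA-sufficient PL and 92.6, 97.4 and 117 CPM in RA-deficient PL. In/B replicate 1 was its high library. Its change of -1.06 with RA (SE 0.21, adjusted p = 0.00225) was -0.89 without RA-sufficient replicate 1 and -0.89 without In/B replicate 1.

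Kif23, Kif15 and Kif18a did not fall in either PL group. Kif23 (chromosome 9, 61765087 to 61794606) encodes the motor subunit of centralspindlin, which bundles midzone microtubules and stays in the intercellular bridges that join germ cells. It had 230, 274 and 268 CPM in In/B, 314, 338 and 319 CPM in RA-sufficient PL and 516, 522 and 493 CPM in RA-deficient PL. The 3 groups were ordered without overlap and highest without RA. Its log2 fold change was 0.39 with RA (SE 0.11, adjusted p = 0.0114), under a fold of 2, and it rose by 1.16 without RA (SE 0.10, adjusted p = 1.76e-04). With library size as the only scaling the latter was 0.84. Kif15, which backs up KIF11 on spindle fibres, had 139, 245 and 224 CPM in In/B, 146, 171 and 172 CPM in RA-sufficient PL and 249, 229 and 284 CPM in RA-deficient PL. In/B replicate 1 was low, and both PL groups overlapped In/B. Kif18a, which damps chromosome movement at metaphase, had 66.1, 80.1 and 82.6 CPM in In/B, 74.7, 82.3 and 79.7 CPM in RA-sufficient PL and 88.5, 85.2 and 128 CPM in RA-deficient PL. Its log2 fold change with RA was 0.10 (SE 0.13, adjusted p = 0.501). Kif2b, a relative of Kif2c, was scarce, with 1, 0 and 5 counts in In/B, 21, 73 and 64 in RA-sufficient PL and 0, 0 and 21 in RA-deficient PL. It was called higher in RA-sufficient PL, but it entered that test only through the RA-sufficient counts and was not tested between In/B and RA-deficient PL.

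**Figure D2:**
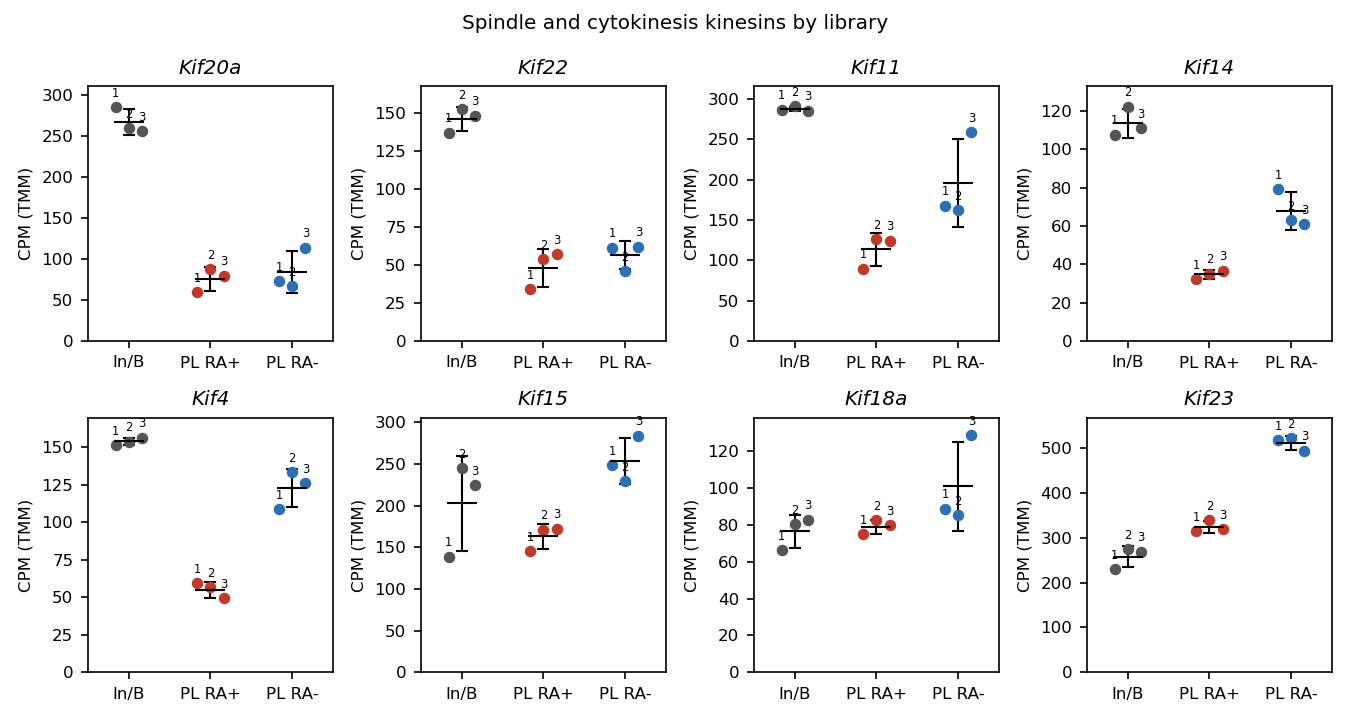
CPM of 8 spindle and cytokinesis kinesins in In/B, RA-sufficient PL (PL RA+) and RA-deficient PL (PL RA-), with points for libraries numbered by replicate and bars for mean and SD (n = 3). Kif20a and Kif22 are low in both PL groups, Kif4, Kif14 and Kif11 lie between In/B and RA-sufficient PL without RA, and Kif23 is highest without RA at 493 to 522 CPM.

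Promoter windows from 250 bases before to 50 bases after the annotated start were available for 30 of the 36 genes (34 windows, as 4 genes have 2), and are shown because the spindle genes share a motif there. The windows are RefSeq sequences in GRCm38.p6, a later build than the mm9 of the counts. The letters TTTGAA, the core of the cell cycle homology region through which many mitotic genes are repressed outside division, were found on either strand in 9 of 11 spindle genes. This is 81.8%, against 17.9% of all 32851 windows, 1 of 9 transport genes and 1 of 8 ciliary genes. The 9 were Kif11, Kif14, Kif15, Kif18b, Kif20b, Kif22, Kif23, Kif2c and Kif4, so they include Kif23 and Kif15, which did not fall. Kif18a and Kif2b had no match. CCAAT, the NF-Y box, was present in 7 of the 11 spindle genes and 5 of 8 ciliary genes (37.4% of all windows). GTTGCC, a partial site of RFX factors that act on ciliary genes, was present in 4 of 8 ciliary genes and 4 of 9 transport genes (12.5% of all windows). Here a gene counts when any of its windows matches, while the share of all windows is per window. Of these transport genes, Kif1a and Kif2a have 2 windows each and match in 1 of them. TAACNG, a MYB site, was present in 4 of 11 spindle genes (23.3% of all windows). None of these motifs holds another, and matches of short letters are a description and not binding sites. The 6 windows below, 5′ to 3′ along the gene with matches to any of the 4 motifs in capitals, compare Kif22, Kif11 and Kif4, which fell, with Kif23 and Kif18a, which did not, and with the ciliary Kif9.
Kif22, chr7:127042371-127042670, - strand: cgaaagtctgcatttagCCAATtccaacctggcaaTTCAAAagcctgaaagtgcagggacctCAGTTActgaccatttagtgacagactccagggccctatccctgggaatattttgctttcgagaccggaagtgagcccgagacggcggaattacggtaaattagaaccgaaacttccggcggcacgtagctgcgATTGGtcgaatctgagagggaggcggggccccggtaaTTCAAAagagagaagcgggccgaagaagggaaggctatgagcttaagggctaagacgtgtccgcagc
Kif11, chr19:37376132-37376431, + strand: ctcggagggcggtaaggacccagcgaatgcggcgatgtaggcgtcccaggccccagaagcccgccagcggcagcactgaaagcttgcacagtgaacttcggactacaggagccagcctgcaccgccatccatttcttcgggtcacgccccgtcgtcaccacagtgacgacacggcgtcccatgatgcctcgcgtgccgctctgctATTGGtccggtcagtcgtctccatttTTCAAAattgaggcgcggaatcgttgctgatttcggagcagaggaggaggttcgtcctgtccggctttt
Kif4, chrX:100625815-100626114, + strand: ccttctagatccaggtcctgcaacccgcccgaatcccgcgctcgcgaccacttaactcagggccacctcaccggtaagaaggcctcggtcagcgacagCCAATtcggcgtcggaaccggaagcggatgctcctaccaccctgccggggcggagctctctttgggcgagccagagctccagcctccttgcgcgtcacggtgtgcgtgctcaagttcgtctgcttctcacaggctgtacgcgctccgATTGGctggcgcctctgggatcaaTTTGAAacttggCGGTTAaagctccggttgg
Kif23, chr9:61946750-61947049, - strand: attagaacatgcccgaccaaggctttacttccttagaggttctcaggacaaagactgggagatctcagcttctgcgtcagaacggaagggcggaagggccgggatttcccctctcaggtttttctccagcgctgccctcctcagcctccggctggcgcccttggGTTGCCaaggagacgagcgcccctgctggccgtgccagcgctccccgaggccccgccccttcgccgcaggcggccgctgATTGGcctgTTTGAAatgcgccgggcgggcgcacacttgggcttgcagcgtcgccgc
Kif18a, chr2:109280488-109280787, + strand: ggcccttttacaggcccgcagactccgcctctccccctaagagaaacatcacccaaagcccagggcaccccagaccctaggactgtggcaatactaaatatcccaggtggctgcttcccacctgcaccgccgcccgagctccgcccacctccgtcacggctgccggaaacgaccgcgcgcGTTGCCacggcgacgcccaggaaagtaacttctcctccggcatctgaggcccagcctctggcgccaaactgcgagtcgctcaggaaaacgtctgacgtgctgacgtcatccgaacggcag
Kif9, chr9:110476708-110477007, + strand: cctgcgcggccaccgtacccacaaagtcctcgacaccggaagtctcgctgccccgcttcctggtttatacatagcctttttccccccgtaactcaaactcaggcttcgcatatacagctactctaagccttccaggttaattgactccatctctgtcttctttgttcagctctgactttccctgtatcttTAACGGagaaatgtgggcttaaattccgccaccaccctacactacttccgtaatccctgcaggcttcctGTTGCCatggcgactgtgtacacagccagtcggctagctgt

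In these sequences, TTCAAA is TTTGAA read on the other strand and ATTGG is CCAAT. Kif22, Kif11, Kif4 and Kif23 have a TTTGAA match within 50 bases of the start and a CCAAT match before it, and Kif18a has neither.

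**Figure D3:**
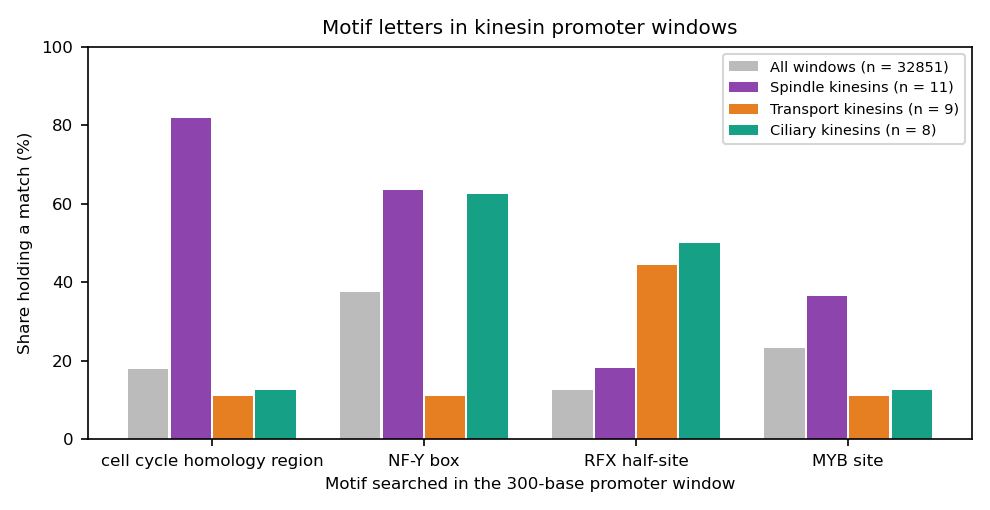
Share in percent of promoter windows or genes that hold a match to each of 4 motifs, for all 32851 windows (grey) and for spindle (n = 11), transport (n = 9) and ciliary (n = 8) kinesin genes. The cell cycle homology region stands at 81.8% in spindle genes and 17.9% in all windows, with no test made.

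Transport kinesins were called no more often than genes at large in the comparisons with In/B. From In/B to RA-sufficient PL, 3 of 13 fell and 2 rose, or 38.5% against 45.4% of all genes. From In/B to RA-deficient PL 1 fell and 2 rose, or 23.1% against 23.2%. Between the PL groups 2 were lower and 1 higher without RA, or 23.1% against 15.5% of all genes. Their summed level was 1397, 1504 and 1432 CPM in In/B, 1565, 1625 and 1485 CPM in RA-sufficient PL and 1738, 1694 and 1812 CPM in RA-deficient PL.

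Of the conventional kinesin heavy chains, which carry vesicles and mitochondria, Kif5a and Kif5c fell and Kif5b did not. Kif5a (chromosome 10, 126662755 to 126700136), known mainly from neurons, had 118, 146 and 148 CPM in In/B, 21.0, 29.1 and 29.6 CPM in RA-sufficient PL and 51.8, 47.6 and 36.2 CPM in RA-deficient PL. The groups were separate and lowest with RA. Its fall was the largest of any kinesin here with RA, -2.31 on the log2 scale (SE 0.17, adjusted p = 1.92e-05), and it was -1.43 without RA (SE 0.18, adjusted p = 7.27e-04). Kif5c had 51.7, 30.6 and 31.6 CPM in In/B, 11.8, 15.3 and 11.998 CPM in RA-sufficient PL and 19.8, 20.7 and 28.1 CPM in RA-deficient PL. The change was -1.49 with RA (SE 0.26, adjusted p = 0.00112) and -0.57 without (SE 0.28, adjusted p = 0.149). Kif5b, the widely used heavy chain, lay between 137 and 204 CPM in all 9 libraries and was called in no comparison. Its In/B libraries (157 to 194 CPM) overlapped both PL groups.

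Kif21a and Kif1a stood highest in the RA-sufficient libraries. Kif21a (chromosome 15, 90763707 to 90880382), which restrains microtubule growth at the cell edge, had 8.33, 22.8 and 17.1 CPM in In/B. In RA-sufficient PL it reached 159, 139 and 121 CPM, and in RA-deficient PL it was at 7.28, 10.7 and 14.6 CPM. The RA-sufficient libraries stood above all others, and the other groups overlapped. It rose by 3.18 (log2, SE 0.32, adjusted p = 6.66e-05) and was lower without RA by -3.69 (SE 0.29, adjusted p = 8.14e-04). Kif1a (chromosome 1, 94912033 to 94998442), a carrier of vesicle precursors in axons, had 1.79, 7.64 and 3.22 CPM in In/B, 63.0, 47.9 and 41.6 CPM in RA-sufficient PL and 6.36, 7.73 and 5.25 CPM in RA-deficient PL. The same separation was seen, with a rise of 3.63 (SE 0.47, adjusted p = 2.18e-04) and a difference of -2.99 without RA (SE 0.29, adjusted p = 0.00115). In the same libraries all 8 Sertoli markers rose, and Clu, the most abundant of them, was at 2519, 1902 and 1849 CPM in RA-sufficient PL and at 38.5, 250 and 168 CPM in In/B. In/B replicate 2 was highest of its group for Kif21a, for Kif1a and for Clu. In RA-deficient PL Clu was at 194, 208 and 348 CPM. Its highest library there, replicate 3, was also highest of its group for Kif21a but lowest for Kif1a. The part of Sertoli RNA in the rise of both kinesins was not tested.

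**Figure D4:**
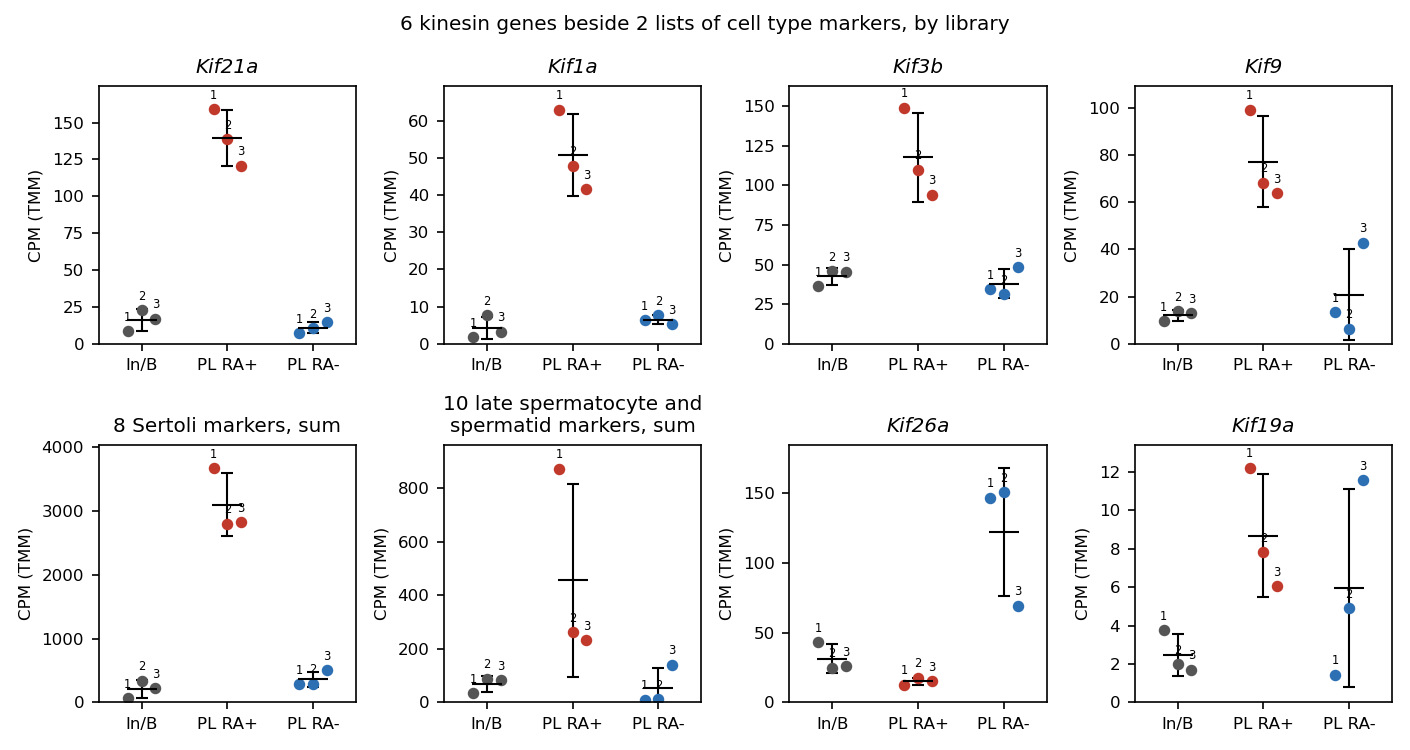
CPM of 6 kinesin genes and summed CPM of 8 Sertoli markers and of 10 late spermatocyte and spermatid markers, in In/B, RA-sufficient PL (PL RA+) and RA-deficient PL (PL RA-), with points for libraries numbered by replicate and bars for mean and SD (n = 3). Kif21a, Kif1a and Kif3b and both marker lists are highest in RA-sufficient PL, Kif9 and Kif19a are also raised in RA-deficient replicate 3, and Kif26a is highest without RA.

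Kif13b and Kif16b rose without RA. Kif13b, which carries membrane proteins and signalling scaffolds, had 97.3, 111 and 103 CPM in In/B, 137, 171 and 156 CPM in RA-sufficient PL and 202, 188 and 237 CPM in RA-deficient PL. It was ordered like Kif23, with no overlap between groups. The log2 fold change of Kif13b was 0.63 in RA-sufficient PL (SE 0.12, adjusted p = 0.00194) and 1.18 in RA-deficient PL (SE 0.13, adjusted p = 4.00e-04). Kif16b, which moves early endosomes, had 89.9, 88.7 and 85.2 CPM in In/B, 89.6, 125 and 118 CPM in RA-sufficient PL and 149, 142 and 183 CPM in RA-deficient PL. The value without RA was 1.01 (SE 0.14, adjusted p = 0.00108), just past the threshold, and it was 0.89 without RA-deficient replicate 3, 0.98 without In/B replicate 2 and 0.99 without In/B replicate 3. With library size as the only scaling the values without RA were 0.86 for Kif13b and 0.69 for Kif16b, and neither was called. Kif1b, a carrier of vesicles and mitochondria, was the kinesin with most counts. It had 308, 444 and 438 CPM in In/B, 452, 500 and 438 CPM in RA-sufficient PL and 643, 652 and 665 CPM in RA-deficient PL. RA-deficient libraries were above all others, by 0.89 over In/B (SE 0.14, adjusted p = 0.00222), which is under a fold of 2.

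Kif21b, the closest relative of Kif21a, went the other way, and its values rested on single libraries. It had 168, 81.8 and 76.8 CPM in In/B, 57.7, 50.02 and 45.5 CPM in RA-sufficient PL and 134, 134 and 59.7 CPM in RA-deficient PL. In/B replicate 1 and RA-deficient replicates 1 and 2 were the high libraries. Its change with RA of -1.04 (SE 0.30, adjusted p = 0.0135) was -0.58 without In/B replicate 1 and had an adjusted p of 0.0511 without RA-sufficient replicate 3, and the difference of 1.09 between the PL groups (SE 0.32, adjusted p = 0.0452) had an adjusted p between 0.0919 and 0.146 when RA-deficient replicate 1 or 2 or any RA-sufficient library was left out. Kif2a, a microtubule depolymerase, had 172, 185 and 163 CPM in In/B, 269, 232 and 218 CPM in RA-sufficient PL and 200, 186 and 247 CPM in RA-deficient PL, a change of 0.52 with RA (SE 0.12, adjusted p = 0.0043). Kif1c, Kif3c and Kif13a were called in no comparison. Kif1c lay between 170 and 198 CPM in In/B and between 75.1 and 108 CPM in RA-sufficient PL, a log2 fold change of -0.91 (SE 0.15, adjusted p = 9.33e-04), while Kif3c and Kif13a stayed between 6.96 and 16.5 CPM in all libraries.

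Ciliary and centriolar kinesins moved both ways with RA, and none of the 9 was called from In/B to RA-deficient PL, where 23.2% of all genes were. By adjusted p alone 2 of the 9 passed there, Kif7 was called lower with library size as the only scaling, and Kif27 was called higher in 3 of the fits that left out 1 library. With RA, 3 fell (Kif7, Kif17 and Kif3a) and 4 rose (Kif9, Kif19a, Kif3b and Kif6). The 7 are 77.8% of the list, against 45.4% of all genes tested. The 9 genes had a median log2 fold change of 0.97 in RA-sufficient PL, and of -0.11 in RA-deficient PL.

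KIF3A and KIF3B pair with the adaptor KAP3, the product of Kifap3, in the motor that carries material toward the ciliary tip, yet their mRNAs moved apart. Kif3a (chromosome 11, 53380881 to 53417746) had 294, 265 and 243 CPM in In/B, 140, 123 and 117 CPM in RA-sufficient PL and 192, 192 and 183 CPM in RA-deficient PL. Kif3b (chromosome 2, 153117149 to 153159126) had 36.2, 45.9 and 45.5 CPM in In/B, 149, 110 and 94.0 CPM in RA-sufficient PL and 34.4, 31.2 and 48.4 CPM in RA-deficient PL. Thus Kif3a was lowest and Kif3b highest with RA, and neither overlapped the other groups there. Kif3a changed by -1.02 (SE 0.13, adjusted p = 1.75e-04), which was -0.95 without In/B replicate 1 and -0.96 without RA-sufficient replicate 3. Kif3b rose by 1.52 (SE 0.19, adjusted p = 1.95e-04) and was lower without RA by -1.64 (SE 0.26, adjusted p = 0.00568). Kifap3 lay between 73.6 and 91.7 CPM in In/B, between 57.0 and 72.4 CPM in RA-sufficient PL and between 69.5 and 88.0 CPM in RA-deficient PL, and was called in no comparison. The rise of Kif3b stood in the libraries with high Sertoli markers, whose part was not tested.

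Kif7 and Kif17 fell with RA. Kif7 (chromosome 7, 86842985 to 86859072), which organizes the ciliary tip for Hedgehog signalling, had 114, 106 and 97.1 CPM in In/B, 27.5, 24.5 and 27.3 CPM in RA-sufficient PL and 58.6, 55.1 and 43.2 CPM in RA-deficient PL. Its 3 groups were separate. The fall was -1.95 with RA (SE 0.14, adjusted p = 1.59e-05), and the value was -0.85 without RA (SE 0.17, adjusted p = 0.00553) and 0.98 between the PL groups (SE 0.19, adjusted p = 0.0131). Kif17, a motor of cilia and dendrites, had 34.8, 33.5 and 32.0 CPM in In/B, 6.77, 11.6 and 11.1 CPM in RA-sufficient PL and 26.0, 22.3 and 13.9 CPM in RA-deficient PL. It fell by 1.71 with RA (SE 0.24, adjusted p = 3.41e-04), and RA-deficient replicate 3 was nearest to the RA-sufficient values. The difference of Kif17 between the PL groups was 1.08 (SE 0.34, adjusted p = 0.0593), and 1.30 (adjusted p = 0.0111) without that library. It was also called with DESeq2 (adjusted p = 0.0171) and in 1 fit of all libraries with edgeR (adjusted p = 0.0177). Kif7 was called higher without RA in that fit too (1.01), without RA-deficient replicate 3 (1.11) and without RA-sufficient replicate 1 (1.04).

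Kif9, Kif19a and Kif6 belong to motile cilia and the sperm tail. Kif9 (chromosome 9, 110379462 to 110427683), a motor of the flagellar central pair, had 9.56, 13.8 and 12.9 CPM in In/B, 99.2, 68.3 and 63.9 CPM in RA-sufficient PL and 13.3, 6.42 and 42.8 CPM in RA-deficient PL. RA-deficient replicate 3 lay well above replicates 1 and 2. Kif9 rose by 2.73 with RA (SE 0.23, adjusted p = 2.92e-05), and the difference between the PL groups was -1.91 (SE 0.64, adjusted p = 0.0702). Without RA-deficient replicate 3 that difference was -2.96 and called (adjusted p = 9.06e-04). It was also called with DESeq2 (-1.89, adjusted p = 0.00418) and in 1 fit of all libraries with edgeR (-1.86, adjusted p = 0.0299). Kif19a, which trims microtubules at the ciliary tip, had 3.75, 2.00 and 1.70 CPM in In/B, 12.2, 7.82 and 6.04 CPM in RA-sufficient PL and 1.44, 4.91 and 11.6 CPM in RA-deficient PL. It rose by 1.86 with RA (SE 0.43, adjusted p = 0.00465), and its RA-deficient libraries overlapped both other groups. Kif6 had 5.37, 4.16 and 3.45 CPM in In/B, 12.8, 7.09 and 6.26 CPM in RA-sufficient PL and 3.32, 3.17 and 1.75 CPM in RA-deficient PL. Its change of 1.06 with RA (SE 0.36, adjusted p = 0.0297) was 0.67 and not called without RA-sufficient replicate 1 (adjusted p = 0.0956), nor was it called without In/B replicate 2 or 3 (adjusted p = 0.0871 and 0.0993). Its difference of -1.68 between the PL groups (SE 0.48, adjusted p = 0.0436) was not called in any of the fits that left out RA-deficient replicate 1 or 2 or an RA-sufficient library. RA-sufficient replicate 1 was highest for all 3 genes and also in the sum of late spermatocyte and spermatid markers. That sum was mostly Ldhc (562, 183 and 171 CPM in RA-sufficient PL) and Piwil1 (268, 49.2 and 36.9 CPM). Acrv1, Spaca1, Tssk1 and Tnp1 were not highest in that library. RA-deficient replicate 3 was highest of its group for Kif9, Kif19a and the marker sum, but not for Prm1, Tnp2 or Tssk1. Of the multiciliated cell markers, the axoneme gene Rsph1 was at 501, 198 and 168 CPM in RA-sufficient PL and at 6.84, 7.33 and 131 CPM in RA-deficient PL, and Tekt1 was at 44.6, 24.7 and 22.5 CPM against 2.36, 0.475 and 3.41 CPM. Of the 7 such markers in the table, Foxj1, Tekt1 and Rsph1 were called higher with RA. Mcidas (0.265 to 1.40 against 1.14 to 7.598 CPM) and Ccno (1.03 to 1.94 against 2.05 to 15.0 CPM) tended the other way between the PL groups without being called, and Gmnc was at or below 0.121 CPM in all libraries. What part multiciliated cells, late spermatocytes or spermatids had in these rises was not tested.

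Kif27 and Kif24 were not called, and Kif27 lay at the threshold. Kif27, a relative of Kif7 used in motile cilia, had 70.7, 56.4 and 61.0 CPM in In/B, 97.0, 119 and 139 CPM in RA-sufficient PL and 84.1, 85.6 and 146 CPM in RA-deficient PL. Both PL groups lay above In/B, by 0.97 with RA (SE 0.17, adjusted p = 9.92e-04) and 0.91 without (SE 0.24, adjusted p = 0.0198), each under a fold of 2. With RA its value was 1.08 without RA-sufficient replicate 1, 1.06 without In/B replicate 1 and 1.02 at a mean of at least 50 counts, all called. Without RA it was 1.01 without RA-deficient replicate 1 or In/B replicate 1 and 1.00 without RA-deficient replicate 2, also called. Kif24, which keeps cilia from growing on the mother centriole, had 116, 140 and 136 CPM in In/B, 125, 154 and 148 CPM in RA-sufficient PL and 102, 116 and 105 CPM in RA-deficient PL. Its groups overlapped in both comparisons with In/B.

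Kif26a had the largest fitted rise without RA of the 35 kinesin genes tested. It encodes an atypical kinesin that does not hydrolyse ATP and that dampens GDNF signalling through RET in enteric neurons. Kif26a (chromosome 12, 113384446 to 113419957) had 43.2, 24.8 and 25.9 CPM in In/B, 12.7, 17.8 and 15.4 CPM in RA-sufficient PL and 147, 151 and 69.4 CPM in RA-deficient PL. No groups overlapped, and RA-deficient replicate 3 was the lowest of its group. It rose by 2.13 without RA (SE 0.36, adjusted p = 0.00268) and was higher than with RA by 3.00 (SE 0.33, adjusted p = 0.00177). With RA its value was -0.98 (SE 0.27, adjusted p = 0.0114), just short of a fold of 2. Its relative Kif26b was at 1.29 CPM or less in every library. The 5 spermatogonial markers summed to between 1109 and 1539 CPM in In/B, and in RA-deficient PL replicate 3 was lowest in their sum and in Kit, Dmrt1 and Sohlh1, but not in Zbtb16 or Nanos3. The part of such cells in the level of Kif26a was not tested.

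**Figure D5:**
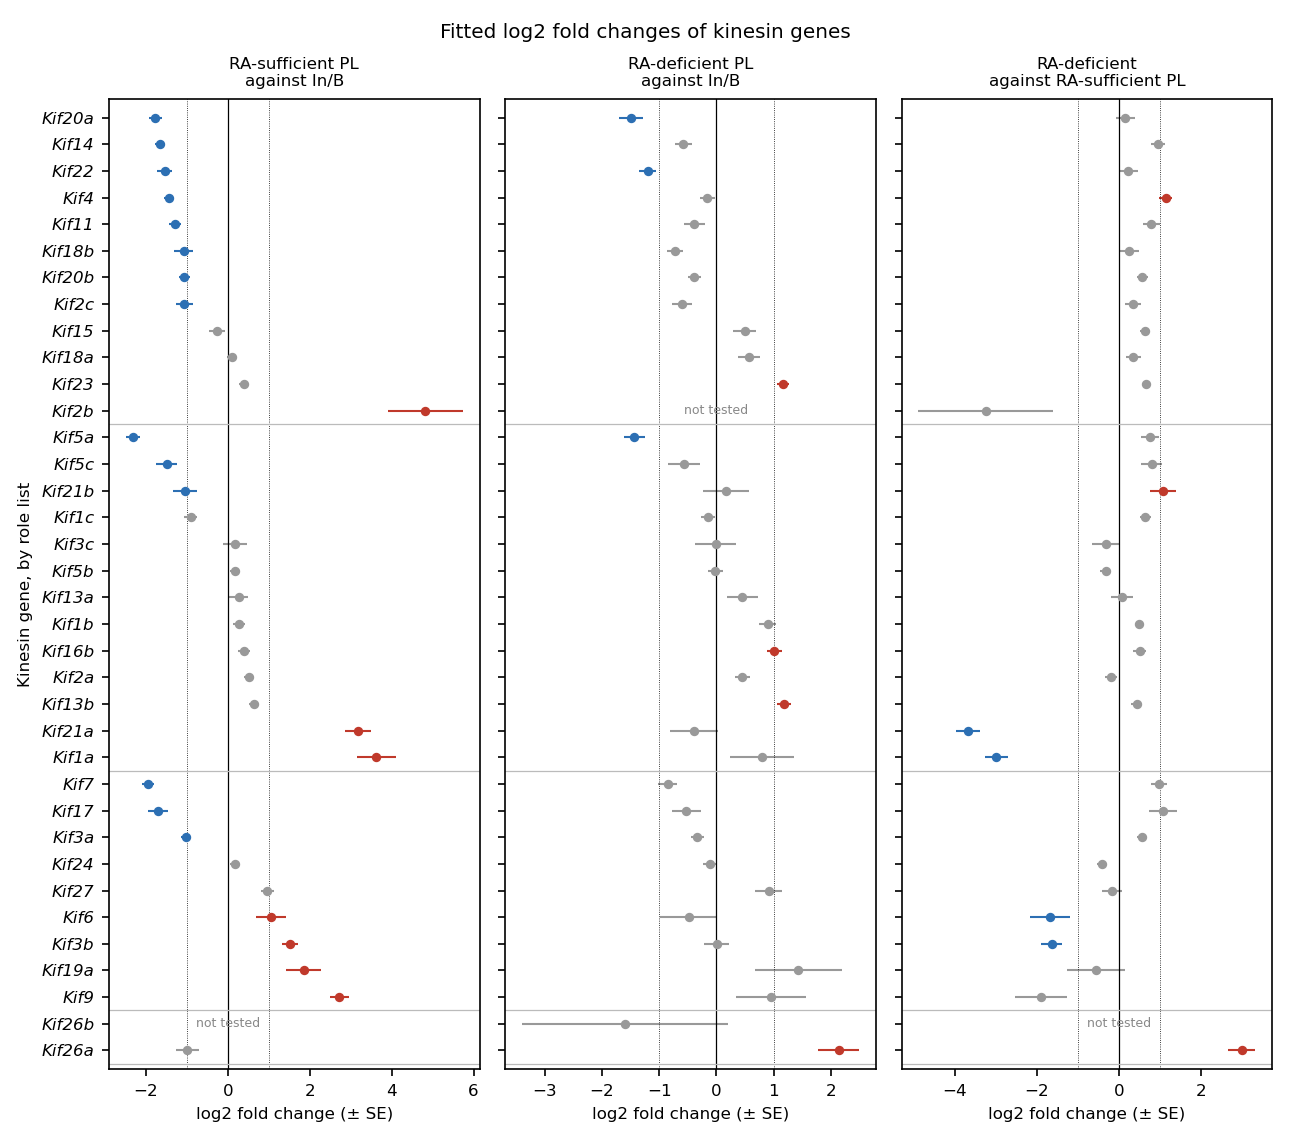
Fitted log2 fold change with its standard error for each kinesin gene in the 3 comparisons with genes called higher in red, called lower in blue and others in grey, and dotted lines at -1 and 1. The 8 spindle genes that fell with RA lie nearer 0 without RA, where only Kif20a and Kif22 are still called lower, and Kif21a, Kif1a, Kif3b and Kif6 are lower and Kif4, Kif21b and Kif26a higher without RA.

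Compared per kilobase of exon, spindle motors led the family in In/B. Kif22 (70.8 ± 3.82 CPM per kilobase), Kif20a (68.4 ± 4.06) and Kif23 (65.7 ± 6.09) did not differ beyond their SD. Kif11 at 59.8 ± 0.589 overlapped Kif23 within their SD. In RA-sufficient PL, Kif23 stood alone at 82.6 ± 3.30 CPM per kilobase, above Kif2a (34.0 ± 3.76) and Kif15 (33.9 ± 3.12), which did not differ beyond their SD. Kif22 had moved from place 1 to place 9 and Kif20a from 2 to 14. In RA-deficient PL, Kif23 was again first at 130 ± 3.86 CPM per kilobase, before Kif15 at 52.7 ± 5.78 and Kif11 at 40.7 ± 11.3, the latter a pair that overlapped within their SD. These are levels and not differences, and n is 3 throughout.

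Partners and motors outside the symbol rule were counted from a list of 25 genes, all of them in the table. Of 5 minus-end and centromere motors, 1 fell with RA and 0 without, where 19.3% and 11.8% of all genes fell. The one that fell was Kifc1, which draws spindle poles together, with 31.9, 46.6 and 39.6 CPM in In/B and 16.3, 15.1 and 23.1 CPM in RA-sufficient PL (log2 fold change -1.05, adjusted p = 0.00307). In RA-deficient PL it had 42.7, 32.2 and 34.5 CPM, 1.00 above RA-sufficient PL on the log2 scale (adjusted p = 0.0252). Its near-identical copy Kifc5b can share its reads. Of 10 spindle partners, 4 fell with RA and 3 without, against the same shares of all genes. The centromere kinase gene Aurkb fell in both, from 116, 113 and 108 CPM to 7.80, 14.6 and 9.53 CPM with RA and 7.08, 3.17 and 8.09 CPM without, and its scaffold Incenp fell in both, with log2 fold changes of -2.35 and -2.04. Nusap1 (-1.25) and Birc5 (-1.06) fell with RA, and Aurka (-1.93) fell without RA. Racgap1, the partner of KIF23 in centralspindlin, lay between 206 and 220 CPM in In/B and RA-sufficient PL together, and between 235 and 253 CPM in RA-deficient PL. Neither it nor Prc1, the midzone bundler that KIF4 binds, was called. Prc1 was nonetheless lower in PL cells, with 292, 243 and 237 CPM in In/B and 137, 126 and 121 CPM in RA-sufficient PL. It had 164, 172 and 197 CPM in RA-deficient PL. Its log2 fold change was -0.96 with RA, under a fold of 2, and -0.37 without. Among 10 cargo partners, 2 fell and 1 rose with RA, and 1 fell and 3 rose without, where 45.4% and 23.2% of all genes were called in either direction. The kinesin light chain Klc2 rose without RA by 1.73 (log2, adjusted p = 1.13e-04), while Trak1, which links KIF5 to mitochondria, rose by 1.20 with RA (adjusted p = 4.21e-04) and fell by 1.10 without (adjusted p = 0.00316). It had 46.3, 41.5 and 36.2 CPM in In/B, 111, 81.1 and 81.6 CPM in RA-sufficient PL and 18.2, 16.7 and 16.5 CPM in RA-deficient PL, so its groups were separate. Klc3 and Mapk8ip3 also rose without RA, by 1.81 and 1.51, and Klc1 and Mapk8ip1 fell with RA, each with a log2 fold change of -1.22.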

How the data were processed

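Total RNA of sorted germ cells was made into stranded mRNA libraries, sequenced from 1 end. According to the study's methods, reads were trimmed with cutadapt 1.9, mapped to mm9 with STAR 2.5.2b and assigned to genes with featureCounts, and the authors deposited raw counts per gene for the 9 libraries in 1 table. The gene annotation and strand setting are not given in the sources used here, and 26 symbols had been turned into dates.

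Counts were tested as deposited with edgeR 4.0.16 in R 4.3.3 (TMM scaling, expression filter, quasi-likelihood F test) in separate fits of 3 against 3 libraries, with Benjamini-Hochberg adjustment over all genes tested. The study's methods used DESeq2, here an alternative (1.42.0). Every adjusted p in the text comes from edgeR unless DESeq2 is named. CPM were TMM-scaled over all 9 libraries. The scripts were tested on simulated counts. Gene coordinates and exon lengths are those of GENCODE M1, and promoter windows those of RefSeq.

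Values per library are given for members that were called with a mean of at least 5 CPM in a group, for the largest changes within each role list, and for the most abundant uncalled members. The members, role lists, partner lists and motifs were chosen with earlier results of these data known. Alternatives were DESeq2, other scalings and filters, 1 fit of all libraries, a replicate block, other thresholds and leaving out each library. Total counts of 12612959 to 27042274 per library limit genes with a few counts, such as Kif2b and Kif26b. The 2 lines that share a name with another were not merged.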

Additional observations from a re-analysis of the deposited data

Results flagged for a closer look

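The change from In/B differed between PL cells with and without RA for 7 kinesin genes, as tested directly between both PL groups (edgeR's quasi-likelihood test, past a fold of 2 with an adjusted p under 0.05). The log2 difference was -3.69 for Kif21a, -2.99 for Kif1a, -1.64 for Kif3b and -1.68 for Kif6, all lower without RA. It was 1.09 for Kif21b, 1.15 for Kif4 and 3.00 for Kif26a, all higher without RA. The calls of Kif6 and Kif21b were lost when single libraries were left out. Those of Kif4 (0.97) and Kif21b (0.91, adjusted p = 0.0794) were lost with library size as the only scaling, and that of Kif6 without a filter on low counts (adjusted p = 0.0503) and with the replicate block (adjusted p = 0.0621).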

How the results depend on the processing

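With DESeq2, DESeq2's size factors in edgeR, no filter on low counts or a mean of at least 50 counts, every count of kinesin genes called stayed within 1.5 times its value. With library size as the only scaling, 1 gene was higher and 5 lower in RA-deficient PL against In/B, and 1 was higher between the PL groups. A single fit of all 9 libraries called 5 higher between the PL groups. By adjusted p alone, the counts were 12 higher with RA, 7 higher and 8 lower without it, and 14 higher between the PL groups. Leaving out 1 library gave 6 to 8 higher and 11 to 15 lower with RA, 3 to 5 higher and 3 lower without RA, and 2 to 6 higher and 3 to 6 lower between the PL groups, where the highest of both came without RA-deficient replicate 3. The cause of these shifts was not tested.

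No pairing of the samples by replicate number was seen. Correlations of the deviations from group means lay between -0.253 and 0.118 for same-numbered libraries and between -0.181 and 0.203 for others. With 3 libraries per group, single odd libraries can set these values, so they cannot show that no litters or preparations were shared. With the replicate block, 13 instead of 14 kinesin genes were lower in RA-sufficient PL Kif21b (-0.95) being lost. The other counts were as before, but between the PL groups Kif6 was lost (adjusted p = 0.0621) and Kif9 gained (-2.34, adjusted p = 0.0486).

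Of 105 log2 fold changes of single genes, 74 kept direction and call under every alternative, and 8 changed sign. In RA-deficient PL against In/B, Kif3b (0.01) was -0.31 with library size only, -0.0196 without a filter, -0.12 in 1 fit of all libraries, -0.0127 with the replicate block and -0.20 to 0.10 with 1 library left out. Kif21b (0.16) was -0.15 with library size only and -0.039 to 0.63 with 1 left out. Kif3c (-0.01) was 0.0099 at a mean of 50 counts, 0.0034 with the block and -0.23 to 0.24 with 1 left out. Kif5b (-0.02) was 0.0019 at a mean of 50 counts and -0.0965 to 0.0241 with 1 left out, and Kif9 (0.95) was -0.13 to 1.34 with 1 left out. Between the PL groups, Kif13a (0.08) was -0.11 and Kif20a (0.16) -0.0252 with library size only, and they were -0.0509 to 0.18 and -0.11 to 0.32 with 1 left out. Kif3c in RA-sufficient PL (0.18) was -0.0169 to 0.42 with 1 left out. None of the 8 was called.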
